A study of Mus musculus with 17 samples.

Results

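Immunoglobulin genes encode the heavy and light chains of antibodies. In the kidneys of mice of 3 ages, 184 of the 260 immunoglobulin genes annotated as V, D, J or C segments had at least 10 counts summed over the 9 kidneys. These 184 genes, out of 53772 gene identifiers shared by the kidney files, are described here by chain, by isotype and by V segment. They comprise 162 of 216 V segments (79 Ighv, 80 Igkv and 3 Iglv), 10 of 14 J segments, 12 of 13 constant region genes and none of the 17 D segments. By chain, 91 are heavy chain genes, 85 are kappa genes and 8 are lambda genes. The summed counts alone chose them, and most of these counts came from the older kidneys, since 86 of the 184 genes had no count in any 3-month-old kidney. A gene with RNA in old kidneys only could therefore enter, and a direction towards higher levels with age is in part set by the choice.

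The study asked how gene expression of the kidney changes with age and compared it with that of cultured tubular cells. The kidney groups are male C57BL/6Rj mice of genotype WT without treatment, 3 each at 3, 12 and 24 months of age, with 1 kidney per mouse. The strain is spelled here as in the sample labels, and the paper's methods spell it C57BL/6JRj. RNA was taken from one part of the snap-frozen right kidney, and the study had left out kidneys with visible pathology. Cultures of primary tubular epithelial cells (PTEC) from the same strain, 4 non-senescent at day 6 of culture and 4 irradiated, senescent ones at day 16 of culture, served here only as a background of epithelial cells. Each value is a level in the whole organ, so that more cells of a type and more RNA per cell cannot be told apart. The 3-month-old kidneys had been counted on another gene set than the older ones. All 184 genes carry the same identifier version in both, but any other difference between these deposits cannot be told apart from age.

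An antibody is built from paired heavy and light chains. In developing B cells a V segment is joined to a J segment, with a D segment between them in the heavy chain, and the joined exon is spliced to a constant region. The constant region of the heavy chain sets the isotype: Ighm encodes IgM and Ighd IgD, the receptors of naive B cells, Igha encodes IgA, the antibody of mucosal surfaces, and the Ighg genes encode the IgG subclasses of later responses. Plasma cells secrete antibodies and hold far more immunoglobulin RNA than resting B cells.

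The J segments carry the sequence at which the joined exon goes over into the constant region. The kappa J segments lie on chromosome 6 of GRCm38 on the plus strand between Igkj1 (chr6:70722562-70722599) and Igkj5 (chr6:70723886-70723927), in gene models of GENCODE release M21. They are shown because their use differed by segment. Capitals mark the letters TT, any base, GG, any 4 bases and GG, which encode the Phe-Gly-x-Gly start of the last framework stretch of the chain and were searched on the printed strand.
Igkj1: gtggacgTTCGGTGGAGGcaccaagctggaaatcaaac
Igkj2: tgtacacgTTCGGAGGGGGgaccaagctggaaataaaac
Igkj3: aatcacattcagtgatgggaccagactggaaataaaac
Igkj4: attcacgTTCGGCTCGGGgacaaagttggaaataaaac
Igkj5: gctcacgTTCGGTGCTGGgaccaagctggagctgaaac

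The V segments that led in single kidneys are shown by their last 60 bases, up to the end of the gene model, because the results below turn on them and because close copies could trade reads. Capitals mark the codon of the conserved cysteine that precedes the third hypervariable loop. Of the heavy chain segments on chromosome 12, all on the minus strand, Ighv1-26 lies at chr12:114788372-114788805, Ighv1-34 at chr12:114851190-114851660, Ighv1-53 at chr12:115158403-115158835, Ighv1-80 at chr12:115912344-115912776 and Ighv9-3 at chr12:114140692-114141122. Of the kappa segments on chromosome 6, Igkv1-110 (chr6:68270485-68271267) and Igkv3-2 (chr6:70698449-70699067) lie on the plus strand, and Igkv4-55 (chr6:69607275-69607828) and Igkv10-96 (chr6:68631963-68632442) on the minus strand.
Ighv1-26: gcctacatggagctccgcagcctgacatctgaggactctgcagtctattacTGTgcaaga
Ighv1-34: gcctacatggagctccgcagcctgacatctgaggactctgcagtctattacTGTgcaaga
Ighv1-53: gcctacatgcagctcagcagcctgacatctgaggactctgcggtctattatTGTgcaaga
Ighv1-80: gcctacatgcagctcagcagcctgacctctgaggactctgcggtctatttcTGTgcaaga
Ighv9-3: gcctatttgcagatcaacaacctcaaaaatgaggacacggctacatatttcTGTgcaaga
Igkv1-110: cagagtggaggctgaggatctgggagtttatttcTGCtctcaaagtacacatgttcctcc
Igkv3-2: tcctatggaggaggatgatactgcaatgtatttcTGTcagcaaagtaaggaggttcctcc
Igkv4-55: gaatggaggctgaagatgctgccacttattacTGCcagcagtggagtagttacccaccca
Igkv10-96: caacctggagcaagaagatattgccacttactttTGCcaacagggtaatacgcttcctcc

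The ends of Ighv1-26 and Ighv1-34 were identical over 60 bases, those of Ighv1-26 and Ighv1-53 differed at 4, and those of Ighv1-26 and Ighv9-3 at 18. Over their whole gene models Ighv1-26 and Ighv1-34 were 87.4% identical. Of windows of 76 bases, 18.5% in Ighv1-34 and 15.9% in Ighv1-26 occurred in another immunoglobulin gene or pseudogene, compared with 30.4% in Igkv1-110, 29.3% in Igkv4-55, 19.7% in Igkv10-96, 15.6% in Ighv1-53, 3.99% in Ighv9-3, 3.63% in Igkv3-2 and 0% in Ighv1-80. Of the 162 V segments 58 shared no such window and 4 shared more than 50% of their windows. Among constant region genes, 5 of 12 shared any window, and in them at most 1.06% of the windows were shared.

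Between 37311247 and 66894790 reads were counted per kidney. Levels are given as CPM, the counts per 1000000 counts of a library size scaled with edgeR's TMM method. The label of whole kidney was checked with 8 markers of tubules and podocytes, none of them at 0, whose summed level lay between 7393 and 15460 CPM. The sum hides differences of single markers. Aqp2 was at 238 to 615 CPM at 3 months, 103 to 105.5 CPM at 12 months and 161.5 to 293 CPM at 24 months. Slc34a1, at 2503 to 7530 CPM, overlapped between all ages. Ages were tested with the quasi-likelihood method of edgeR over 17067 genes, of which 123 were among the 184 immunoglobulin genes and the other 61 had too few counts to be tested. Calls needed an adjusted p below 0.05 together with a log2 fold change beyond 0.5 in either direction. Just inside the limit of 10 counts lay Ighv1-62-2 and Igkv5-37 with 10 counts each and Ighe, which encodes IgE, with 11. Just outside lay Ighv5-15 with 9 counts and Ighv1-63 and Ighv2-4 with 8 each.

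The summed level of the 184 genes was higher in every older kidney than in every 3-month-old kidney. At 3 months it was 13.7, 6.43 and 19.1 CPM in replicates 1, 2 and 3. It was 79.0, 391 and 524 CPM at 12 months, and 195, 1334 and 437 CPM at 24 months. The 2 older groups overlapped with each other, and replicate 2 at 24 months lay above all other kidneys. The means were 13.1 ± 6.36 CPM at 3 months, 331 ± 228 CPM at 12 months and 656 ± 600 CPM at 24 months (SD, n = 3 each), with means 50.2-fold higher at 24 than at 3 months and 25.4-fold higher at 12 than at 3 months. Without 24-month replicate 2 the first of these folds was 24.2. At 24 months the mean was 1.98-fold that at 12 months, and without 24-month replicate 2 it was 0.955-fold. As a share of all counts, these genes took between 0.000635% and 0.0019% at 3 months and between 0.00762% and 0.14% in the older kidneys.

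**Figure D1:**
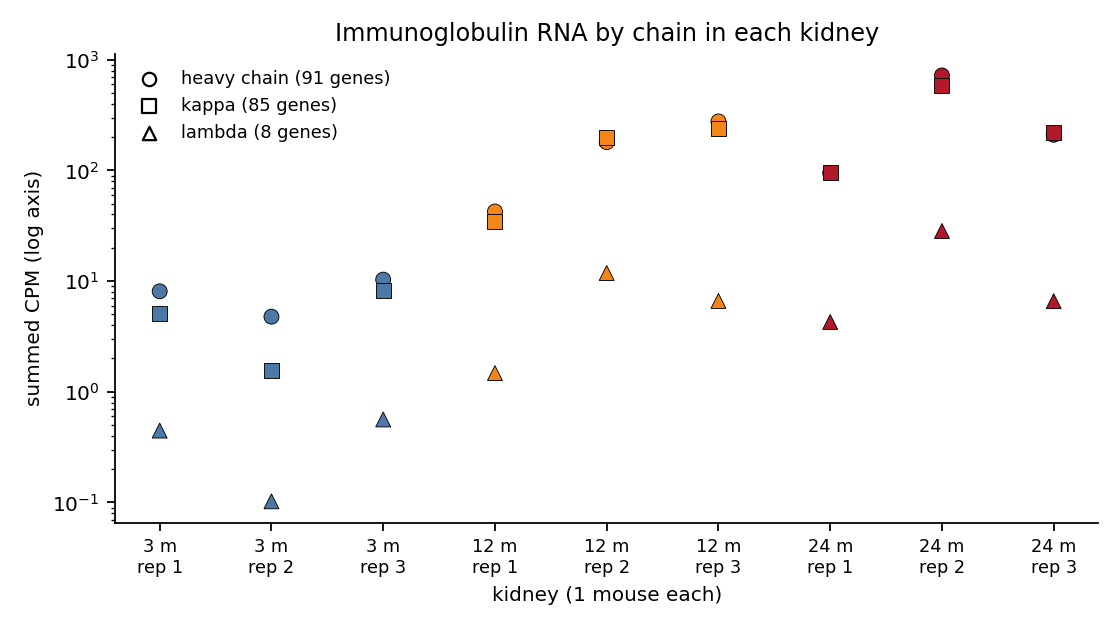
Summed CPM of heavy chain, kappa and lambda genes (log axis) in each of the 9 kidneys, 1 point per chain and kidney. In each chain every 12- and 24-month-old kidney lies above every 3-month-old kidney, and 24-month replicate 2 is the highest, with 722 CPM of heavy chain RNA.

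Each chain followed this order. Heavy chain genes summed to 8.09, 4.77 and 10.3 CPM at 3 months, 42.6, 180 and 277 CPM at 12 months, and 94.8, 722 and 210 CPM at 24 months. Kappa genes, which encode the major light chain of the mouse, summed to 5.12, 1.56 and 8.23 CPM at 3 months, 34.9, 199 and 239.5 CPM at 12 months, and 96.3, 584 and 220.3 CPM at 24 months. Lambda genes, which encode the minor light chain, summed to 0.446, 0.102 and 0.562 CPM, then 1.48, 11.8 and 6.62 CPM, then 4.28, 28.4 and 6.59 CPM. In each of the 3 chains the 3-month-old kidneys stayed below all older ones, while the ranges at 12 and 24 months overlapped. The constant regions held most of the RNA, with means of 11.3, 246 and 500.4 CPM at 3, 12 and 24 months, compared with 1.73, 82.0 and 149.7 CPM for V segments and 0.0449, 3.31 and 5.58 CPM for J segments.

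Between 24 and 3 months, 35 of the 184 genes were up-regulated and none was down-regulated. Over all genes tested, 1.89% passed as up-regulated and 0.451% as down-regulated. The 35 were 9 constant region genes, 7 Ighv, 17 Igkv and 2 J segments (Ighj1 and Igkj1), and no Iglv. Among all 184 genes, tested or not, 145 had 24-month-old kidneys wholly above the 3-month-old ones and none wholly below, against 11.6% of all genes with at least 10 counts wholly above. Of the 184, 86 had no count at 3 months and could not lie below, so the choice of genes in part fixes this result. The number of calls depended on single kidneys, in a design with 3 mice per age. It was 2 without 3-month replicate 1, 7 without 3-month replicate 3, 23 without 3-month replicate 2, 15 without 24-month replicate 2, 11 without 24-month replicate 3 and 27 without 24-month replicate 1. In all 9 kidneys 120 of the 123 tested genes (97.6%) had an unadjusted p under 0.05 in edgeR, against 18.2% of all genes. With a kidney left out, this share of the immunoglobulin genes then tested lay between 83.9% and 94.8%, against 11% to 33.5% of all genes. These shares too are in part set by the choice, since 39 of the 123 tested genes had no count at 3 months. The genes share the same kidneys and are not independent of each other. DESeq2 with the study's settings called 122 of the genes as up-regulated, among 2.42% of all its genes.

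Between 12 and 3 months, 18 of the 184 genes were up-regulated and none was down-regulated, where 1.22% of all genes tested were up-regulated and 1.36% down-regulated. These were Ighd, Igkc and Iglc3 among constant region genes, 5 Ighv, 9 Igkv and Ighj1. In 110 of the 184 genes the 12-month-old kidneys lay wholly above the 3-month-old ones, and in none wholly below, against 10.3% of all genes wholly above. The 86 genes at 0 in all 3-month-old kidneys could again not lie below, so the choice of genes in part fixes this result as well. Here too the count rested on single kidneys: it was 1 without 3-month replicate 1, 3 without 3-month replicate 2, 0 without 3-month replicate 3, 1 without 12-month replicate 2, 1 without 12-month replicate 3 and 18 without 12-month replicate 1. When 3-month replicate 3 was left out, 98 of the 139 immunoglobulin genes then tested had an unadjusted p under 0.05 in edgeR (70.5%), against 14.1% of all genes. DESeq2 called 97 in all 9 kidneys, among 1.77% of its genes. Both comparisons share the 3-month-old kidneys, so their calls are not independent.

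Between 24 and 12 months no immunoglobulin gene was called by edgeR, with 25 of the 123 tested genes (20.3%) at an unadjusted p under 0.05 against 15.2% of all genes tested, and limma voom called none either. Over all genes tested, 0.896% passed as up-regulated and 0.434% as down-regulated. DESeq2 called 10 as up-regulated, among 1.64% of its genes: Ighm, Ighg1, Ighg2c, Ighg3, Ighv1-53, Ighv3-6, Igkv12-41, Igkv3-10, Igkv3-7 and Igkv6-32. With the replicate number as a block edgeR called none in the fit of all 9 kidneys. There 32 of the 123 genes (26%) had an unadjusted p under 0.05, against 11.3% of all genes. In a fit of these 6 kidneys with that block, chosen after seeing the data, it called 24 immunoglobulin genes higher and 2 lower at 24 months, where 7.77% of all genes were higher and 5.41% lower. In that fit 39 of the 126 immunoglobulin genes tested had an unadjusted p under 0.05, against 34.7% of all genes. The 24 included Ighg1, Ighg2b, Ighg2c, Ighg3 and Iglc1, and 8 of the 10 genes that DESeq2 called were among them. In 22 of the 184 genes the 24-month-old kidneys lay wholly above the 12-month-old ones and in 2 wholly below, compared with 11.9% and 11.3% of all genes, so that the first share was close to the background.

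Among the constant region genes, Ighg2c, the gene of an IgG subclass, had the largest log2 fold change of 24 months against either younger age. Ighg2c (chr12:113285325-113288932) was listed at 0, 0 and 0.427 CPM at 3 months, at 0.191, 0.526 and 0.579 CPM at 12 months, and at 1.53, 37.4 and 29.1 CPM at 24 months. Every 24-month-old kidney lay above every younger one, and 24-month replicate 1 was far below the other two. The log2 fold change between 24 and 3 months was 7.27 (standard error 1.43, adjusted p = 0.0368 from edgeR) and that between 24 and 12 months was 5.71 (standard error 1.25, adjusted p = 0.0663). The first was called with 24-month replicate 1 left out and with no other kidney left out. Between 12 and 3 months the log2 fold change was 1.56 (adjusted p = 0.713), and these groups overlapped. All 19 counts of Ighg2c at 3 months were in replicate 3, so that this overlap and both folds against 3 months rest on that kidney. Without it the 3-month group was at 0, and the fitted log2 fold changes, which then depend on the treatment of zeros, were 7.62 at 12 months and 13.33 at 24 months.

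Ighg2b (chr12:113302965-113307933), the gene of another IgG subclass, was at 0.0263, 0 and 0.495 CPM at 3 months, 0.815, 2.58 and 2.08 CPM at 12 months, and 4.98, 42.0 and 23.6 CPM at 24 months. Its 3 age groups did not overlap. At 24 against 3 months it was up-regulated by 7.05 on the log2 scale (standard error 1.18, adjusted p = 0.0201 from edgeR), but not without 3-month replicate 1, 24-month replicate 2 or 24-month replicate 3. Of its 23 counts at 3 months 22 were in replicate 3, without which the value was 10.74. Against 12 months its log2 fold change was 3.68 (adjusted p = 0.102). With the replicate block it was 3.44 in the fit of all 9 kidneys (adjusted p = 0.152) and 3.46 in that of the 6 older kidneys (adjusted p = 0.000547), a fit chosen after seeing the data.

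Ighg1 (chr12:113325240-113330523) was at 0, 0 and 0.158 CPM at 3 months, 0.347, 0.428 and 0.309 CPM at 12 months and 0.779, 5.75 and 2.93 CPM at 24 months. The 3 age groups of Ighg1 did not overlap either, and it was up-regulated by 5.83 on the log2 scale at 24 against 3 months (standard error 1.06, adjusted p = 0.0262 from edgeR). Ighg3 (chr12:113356224-113361232) had 3 counts in all 3-month-old kidneys together and 439 at 24 months, a ratio of levels of 97.9 with a 95% counting interval from 33.3 to 476. Its level was 0.0694, 0.0822 and 0.560 CPM at 12 months and 0.535, 1.398 and 4.79 CPM at 24 months, where 24-month replicate 3 was highest and the 2 ages overlapped. Each 24-month-old kidney lay above the 12-month-old one of the same replicate number, but the labels do not say that these numbers pair the mice. The difference of Ighg3 between 24 and 12 months was called by DESeq2. It was also called by edgeR with the block in the 6 older kidneys, a fit chosen after seeing the data. In all 9 kidneys edgeR did not call it, with or without the block. All 7 counts of Ighg1 at 3 months were in replicate 3, and without this kidney the fitted value was 10.48 against a group at 0. The call of Ighg1 was lost without 3-month replicate 1, 24-month replicate 2 or 24-month replicate 3, and that of Ighg3 without each kidney other than 24-month replicate 1. Summed over the 4 genes, IgG RNA was at 0.0525, 0 and 1.13 CPM at 3 months, 1.42, 3.62 and 3.53 CPM at 12 months and 7.82, 86.5 and 60.4 CPM at 24 months, with the 24-month mean 18.1-fold that at 12 months, or 11.9-fold without 24-month replicate 2.

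**Figure D2:**
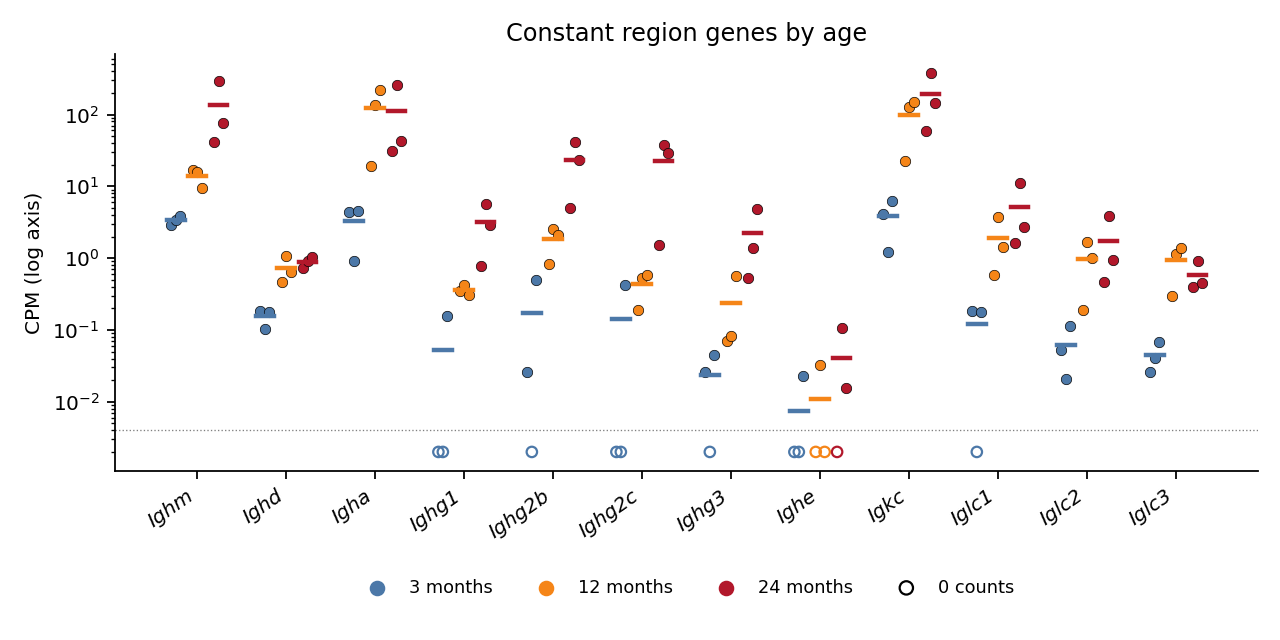
CPM (log axis) of the 12 constant region genes in each kidney, coloured by age, with bars at the means of 3 kidneys and open circles for kidneys without a count. The 24-month points of Ighm, Ighg1, Ighg2b and Ighg2c lie above all younger points, whereas those of Igha, Igkc and the Iglc genes overlap with the 12-month points.

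Ighm (chr12:113418558-113422730), the IgM gene, varied little between the 3-month-old kidneys and was up-regulated at 24 months. It was at 2.89, 3.44 and 3.80 CPM at 3 months, 16.8, 15.7 and 9.49 CPM at 12 months, and 41.2, 290.2 and 76.9 CPM at 24 months. None of these ages overlapped with another. The log2 fold change between 24 and 3 months was 5.33 (standard error 0.724, adjusted p = 0.00955 from edgeR), and the call was lost only without 3-month replicate 1. Between 12 and 3 months the log2 fold change was 2.05 (adjusted p = 0.138), and between 24 and 12 months it was 3.28 (standard error 0.652, adjusted p = 0.0505), or 2.08 without 24-month replicate 2.

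Igha (chr12:113254830-113260236), the IgA gene, was at 4.41, 0.901 and 4.59 CPM at 3 months, 18.9, 135 and 221 CPM at 12 months, and 30.6, 258 and 42.6 CPM at 24 months. All older kidneys lay above all 3-month-old ones, and the 12- and 24-month-old kidneys overlapped. The log2 fold changes were 5.25 between 12 and 3 months (adjusted p = 0.0578 from edgeR) and 5.07 between 24 and 3 months (adjusted p = 0.0691), so that neither passed the test. Between 24 and 12 months the log2 fold change was -0.18 (adjusted p = 0.942), with values from -1.77 without 24-month replicate 2 to 0.53 without 12-month replicate 3. Ighd (chr12:113406604-113416324), which naive B cells express together with Ighm, was at 0.184, 0.102 and 0.180 CPM at 3 months, 0.468, 1.09 and 0.637 CPM at 12 months and 0.718, 0.912 and 1.03 CPM at 24 months. It was up-regulated by 2.23 on the log2 scale at 12 months (adjusted p = 0.0336) and by 2.51 at 24 months (adjusted p = 0.0185), the smallest rise of a called constant region gene in either comparison. The 12-month call of Ighd was lost without any 1 of the 6 kidneys, and the 24-month call without 3-month replicate 1 or 3 or 24-month replicate 2 or 3. With a kidney left out its log2 fold change lay between 1.83 and 2.47 at 12 months and between 2.28 and 2.64 at 24 months.

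Among light chain constant genes, Igkc (chr6:70726435-70726966) was at 4.10, 1.21 and 6.21 CPM at 3 months, 22.4, 125.5 and 150.0 CPM at 12 months, and 58.5, 378 and 145 CPM at 24 months. It was up-regulated by 4.70 on the log2 scale at 12 months (adjusted p = 0.0448 from edgeR) and by 5.66 at 24 months (standard error 1.02, adjusted p = 0.0259). The first call was lost without any 1 of the 6 kidneys, and the second was kept only without 3-month replicate 2 or 24-month replicate 1. Of the lambda genes, Iglc1 (chr16:19061618-19062071) rose by 5.43 at 24 months (adjusted p = 0.0497), and Iglc3 (chr16:19065230-19065681) rose by 4.31 at 12 months (adjusted p = 0.0282) and by 3.62 at 24 months (adjusted p = 0.0463). Iglc2 (chr16:19198396-19200351) had a log2 fold change of 4.79 at 24 months (adjusted p = 0.0734). The 24-month calls of Iglc1 and Iglc3 were lost without any 1 of the 6 kidneys, and the 12-month call of Iglc3 without 3-month replicate 1 or 3 or 12-month replicate 2 or 3. Of the light chain constant counts per kilobase, kappa took 93.3%, 94.8% and 94.1% at 3 months, 94.9%, 94.6% and 97.3% at 12 months, and 95.4%, 95.6% and 97.0% at 24 months. Each 24-month-old kidney lay above each 3-month-old one, while the 12-month-old kidneys overlapped with both. These shares were not tested.

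The isotype composition was set apart from the total level by expressing each heavy chain constant gene as a share of their counts per kilobase of exon. At 12 months Igha took 42.1%, 82.9% and 92.3% of this sum, compared with 50.1%, 15.2% and 38.8% at 3 months and 30.8%, 32.5% and 17.5% at 24 months. Replicates 2 and 3 at 12 months were thus dominated by Igha, whereas replicate 1 at 12 months lay within the range of the other ages. Ighm took 46.4%, 82.3% and 45.5% at 3 months, 52.8%, 13.6% and 5.6% at 12 months, and 58.7%, 51.7% and 44.7% at 24 months. Each 24-month-old kidney held a smaller Igha share than each 12-month-old one. The Ighm shares of these ages overlapped, with 12-month replicate 1 at 52.8% above 24-month replicates 2 and 3. These differences were not tested. The IgG genes together took 0.614%, 0% and 13.2% at 3 months, 3.62%, 2.55% and 1.73% at 12 months, and 9.47%, 15.7% and 37.1% at 24 months. Each 24-month-old kidney held a larger IgG share than each 12-month-old one, while 3-month replicate 3, with 50 IgG counts, overlapped with the 24-month range. The counts behind these shares were 287, 217 and 432 at 3 months and between 2167 and 41860 in the older kidneys.

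**Figure D3:**
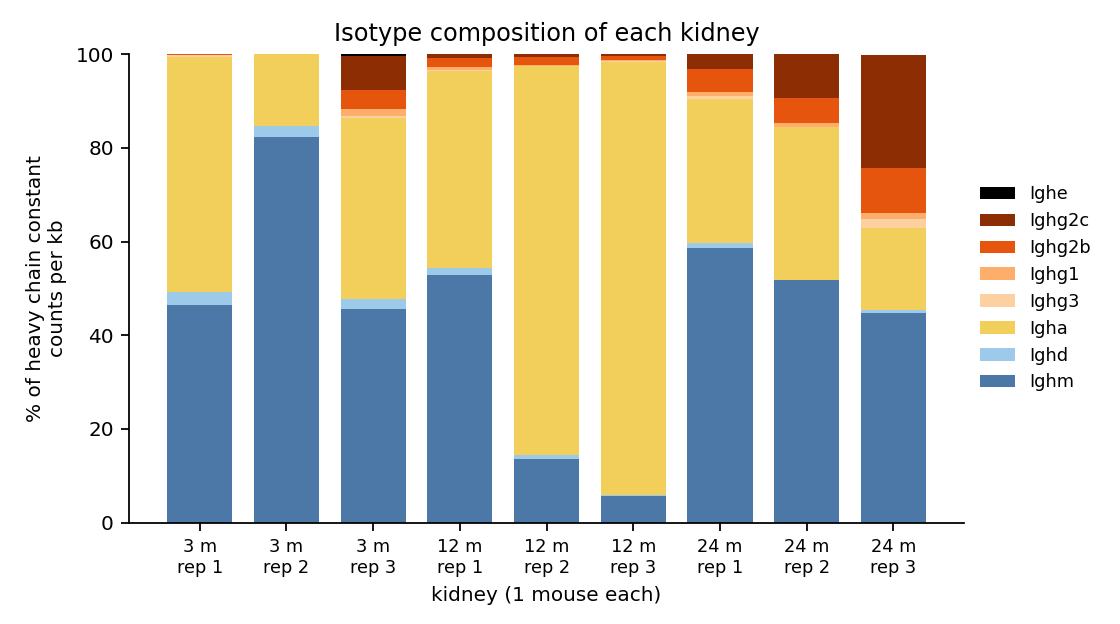
Share of each heavy chain constant gene in the heavy chain constant counts per kilobase of exon, stacked to 100% for each of the 9 kidneys. Igha fills 82.9% and 92.3% of 12-month replicates 2 and 3, and the Ighg genes are widest in 24-month replicate 3 at 37.1%.

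The ratio of Igha to Ighm per kilobase was 1.08, 0.185 and 0.853 at 3 months, 0.796, 6.08 and 16.5 at 12 months and 0.525, 0.629 and 0.392 at 24 months. Only 12-month replicates 2 and 3 exceeded 1.08. The ratio of Ighm to Ighd per kilobase was 15.8, 33.8 and 21.3 at 3 months, 36.1, 14.6 and 15.0 at 12 months and 57.8, 321 and 75.3 at 24 months, so that the 24-month-old kidneys lay above all others. Within IgG, Ighg2c took 3.09%, 9.47% and 24.1% of all heavy chain constant counts per kilobase at 24 months, compared with at most 0.854% at 12 months and with 0%, 0% and 7.28% at 3 months, where replicate 3 lay above 24-month replicate 1. Counts of Igkv segments relative to those of Igkc were 0.244, 0.271 and 0.319 at 3 months and between 0.5 and 0.624 in the older kidneys, which did not overlap.

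Because a rearranged segment marks the B cells that carry it, use of V segments was compared between kidneys. The number of segments with a count followed depth: 16, 12 and 13 Ighv segments had a count at 3 months, on 21, 15 and 26 Ighv counts, and between 50 and 76 at 12 and 24 months, on 267 to 5505 counts. When thinned to the same 267 counts, the 6 older kidneys were expected to show between 50 and 55.6 Ighv segments, and thinned to 700 counts between 60.7 and 65.2 Igkv segments. The effective number of segments, the inverse Simpson index, was 20.2, 36.2 and 34.4 for Ighv at 12 months and 23.7, 24.0 and 25.1 at 24 months. For Igkv it was 16.9, 32.3 and 26.6 at 12 months and 25.1, 17.0 and 31.8 at 24 months. The 2 ages overlapped in each of these measures, and the leading segment took at most 17.4% of the Ighv or Igkv counts in any older kidney.

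The leading segments differed between kidneys. Among Igkv, Igkv1-110 led in each of the 3 kidneys of 12 months, with 16.0%, 7.19% and 12.6% of the Igkv counts (95% exact intervals from 13.4 to 18.9%, 6.44 to 8.01% and 11.6 to 13.6%, which cover counting error only). At 24 months Igkv3-2 led in replicates 1 and 2 with 10.7% and 17.4%, and Igkv4-55 in replicate 3 with 7.97%. Among Ighv, Ighv1-26 led in 12-month replicates 1 and 2 with 12.7% and 5.72%, and Ighv9-3 in replicate 3 with 7.71%. The 24-month-old kidneys were each led by another heavy chain segment, Ighv1-53 with 14.3%, Ighv1-34 with 10.5% and Ighv1-80 with 10.6%. Of the 10 leading segments of each older kidney, Ighv1-26 among Ighv and Igkv1-110 and Igkv10-96 among Igkv were common to all 6, out of 30 different segments in each class. Any 2 older kidneys had between 2 and 7 of their leading 10 Ighv segments in common and between 3 and 6 of their Igkv segments.

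**Figure D4:**
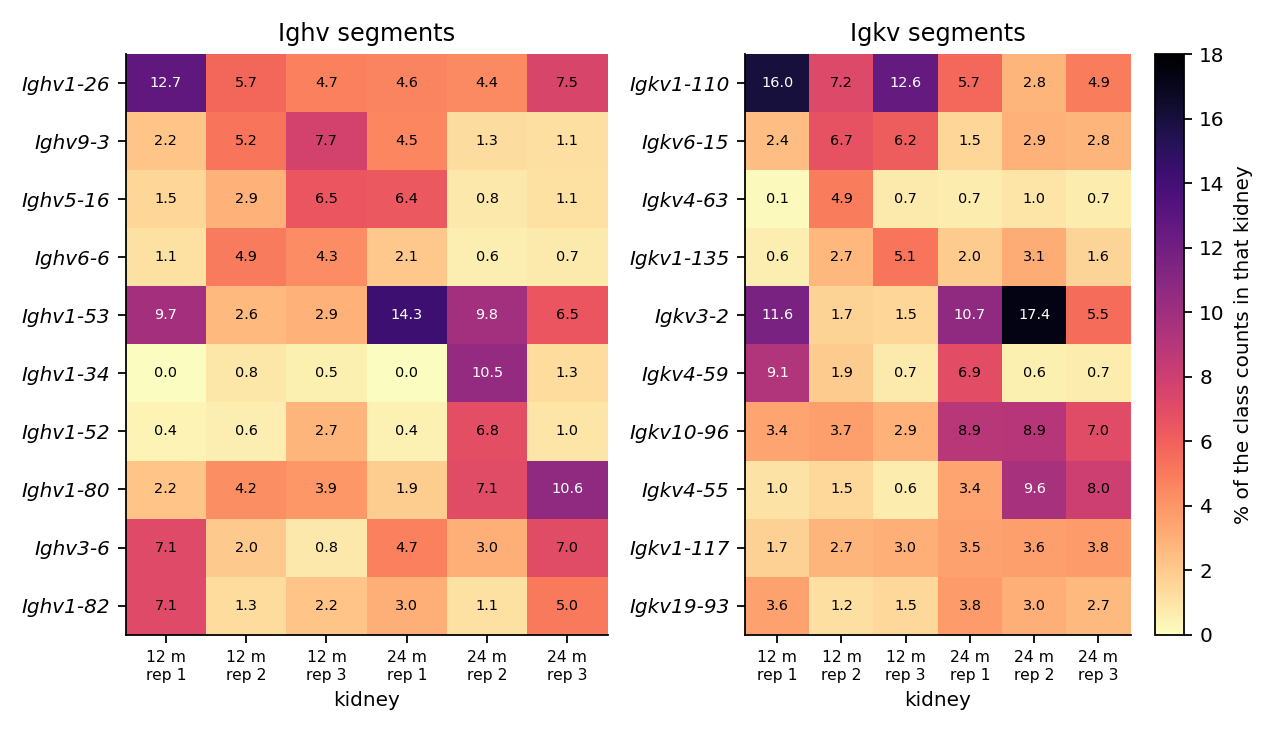
Share of the Ighv (left) and Igkv (right) counts of each 12- and 24-month-old kidney taken by 10 segments of each class, chosen after their values were seen from those that lead in single kidneys. Ighv1-34 reaches 10.5% in 24-month replicate 2 alone, whereas Igkv1-110 leads all 12-month-old kidneys.

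Igkv1-110 was at 0.0788, 0 and 0.0225 CPM at 3 months, 1.94, 5.08 and 10.9 CPM at 12 months, and 2.08, 5.50 and 3.53 CPM at 24 months. Its older kidneys overlapped between ages and lay above all 3-month-old ones. It was up-regulated by 7.49 on the log2 scale at 12 months (standard error 0.985, adjusted p = 0.00998 from edgeR), the largest such rise among called V segments with at least 1 CPM on average, and by 6.81 at 24 months (adjusted p = 0.0121). The 12-month call was lost only without 3-month replicate 3, and the 24-month call without 3-month replicate 1 or 3. Its 3-month level rested on 4 counts.

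Other called V segments had levels of the same order. Ighv1-26, with 3 counts at 3 months, was 55.3-fold higher at 12 months (95% counting interval from 18.7 to 270.2) and 94.3-fold higher at 24 months (32.1 to 459), with adjusted p-values of 0.0236 and 0.0121 from edgeR. Igkv10-96 was at 0.105, 0 and 0.0900 CPM at 3 months, 0.416, 2.58 and 2.53 CPM at 12 months, and 3.25, 17.7 and 5.10 CPM at 24 months, with no overlap between any ages. Its rise at 24 months was 7.09 on the log2 scale (standard error 1.15, adjusted p = 0.0179), and the call was lost without 3-month replicate 1 or 3. Igkv1-117, with 2 counts at 3 months, was 244-fold higher at 24 months (67.3 to 2020, adjusted p = 0.0242) and 102-fold higher at 12 months (28.0 to 848.5, adjusted p = 0.0489). Igkv6-15, with 3 counts at 3 months, was 149-fold higher at 12 months (50.7 to 724, adjusted p = 0.0498). It had a log2 fold change of 6.78 at 24 months that was not called (adjusted p = 0.0616). Ighv1-53, with 2 counts at 3 months, was 47.8-fold higher at 12 months (13.0 to 399, adjusted p = 0.0476) and 264-fold higher at 24 months (72.9 to 2185, adjusted p = 0.0103). Both of these counts were in 3-month replicate 3. Its 24-month call was lost only without 3-month replicate 1, and its 12-month call without any 1 of the 6 kidneys. The 12-month call of Ighv1-26 was kept only without 3-month replicate 2 or 12-month replicate 1. Its 24-month call was lost without 3-month replicate 1 or 3, that of Igkv1-117 also without 24-month replicate 2 or 3, and the 12-month calls of Igkv1-117 and Igkv6-15 were kept only without 12-month replicate 1.

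Several V segments were carried by 1 kidney. Ighv1-34 was at 0.0263, 0 and 0 CPM at 3 months, 0, 0.197 and 0.212 CPM at 12 months, and 0, 8.75 and 0.369 CPM at 24 months. The single value of 8.75 CPM in 24-month replicate 2 held 91.8% of its level summed over the 6 older kidneys, and the gene was not called at 24 months (log2 fold change 8.26 against 3 months, adjusted p = 0.146 from edgeR, or 4.22 without this kidney). Igkv3-2 and Igkv4-55 had 74.5% and 68.6% of their summed level in the same kidney, at 34.4 and 19.1 CPM. Igkv3-2 was at 3.89 and 3.99 CPM in the other 24-month-old kidneys, above every younger kidney (at most 1.41 CPM), and was called against 3 months (log2 fold change 8.45, adjusted p = 0.0155 from edgeR), though not without 3-month replicate 1 or 3. All 5 of its counts at 3 months were in replicate 3, without which the fitted value was 12.64. Among segments with at least 100 counts, 14 of 39 Ighv and 19 of 55 Igkv had more than 50% of their level in 1 of the 6 older kidneys. This kidney was 24-month replicate 2 in 12 and 12 of these, and it held 45.1% of the summed level of all 184 genes. The highest kidney was another one for Ighv9-3 and Ighv5-16, with 48.8% and 50.3% of their levels in 12-month replicate 3.

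Of the 3 lambda V segments, Iglv1 was at 0.184, 0.0205 and 0.180 CPM at 3 months, 0.278, 4.74 and 2.20 CPM at 12 months, and 1.47, 9.83 and 1.86 CPM at 24 months. Its older kidneys lay above all 3-month-old ones, but the log2 fold changes of 4.25 at 12 months (adjusted p = 0.122 from edgeR) and 5.12 at 24 months (adjusted p = 0.0793) did not pass the test. Most Iglv counts were of Iglv1, with 288 of 306 in 12-month replicate 2 and 647 of 811 in 24-month replicate 2. Iglv2 and Iglv3 had 97 and 165 counts over the 9 kidneys and were not called either.

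Igkv3-5 (chr6:70663275-70663895) had no count at 3 months and was at 0.191, 0.428 and 1.39 CPM at 12 months and 1.28, 4.16 and 1.66 CPM at 24 months. At 24 months its mean was at least 34.2-fold higher than the floor of 3 counts per library (adjusted p = 0.0288 from edgeR), and the call was kept only without 3-month replicate 2. Igkv6-23 was at 0.0525, 0.0410 and 0.0225 CPM at 3 months, 0.295, 2.06 and 1.95 CPM at 12 months, and 0.901, 3.42 and 1.03 CPM at 24 months. It was called at 12 months (log2 fold change 5.15, adjusted p = 0.0396), kept only without 12-month replicate 1, and at 24 months (5.47, adjusted p = 0.0291), lost without any 1 of the 6 kidneys.

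Grouped by sequence family, the Ighv1 family, the largest of the heavy chain locus with 41 genes here, took 47.6%, 46.7% and 38.5% of the Ighv counts at 3 months, 65.5%, 49.4% and 55.5% at 12 months, and 58.0%, 73.1% and 63.1% at 24 months. The 2 older ages overlapped, and both lay above 3 months. The 3-month shares rest on only 21, 15 and 26 Ighv counts, and the nearest older kidney was at 49.4%, so counting error may span this gap. Of the 29 families, 2 lay wholly higher (Igkv10 and Ighv12) and 2 wholly lower (Igkv1 and Igkv15) at 24 than at 12 months, 6.9% each, which is below the shares of all genes that did so. Ighv12 was 1 gene, with 0 counts at 12 months and 1, 11 and 1 counts at 24 months. The Igkv shares at 3 months rest on 38, 16 and 88 counts. The Igkv10 family took 10.5%, 0% and 4.55% of the Igkv counts at 3 months, 4.0%, 4.4% and 5.05% at 12 months, and 9.53%, 9.98% and 8.78% at 24 months, so that the 3-month range spanned both. The Igkv1 family, with Igkv1-110, took 10.5%, 12.5% and 2.27% at 3 months, 18.7%, 15.2% and 22.1% at 12 months, and 12.0%, 10.9% and 10.9% at 24 months. The Igkv3 family, with Igkv3-2, took 17.3%, 3.77% and 4.11% at 12 months and 18.6%, 23.9% and 13.3% at 24 months, where 12-month replicate 1 lay within the 24-month range. These shares were not tested.

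Of the J segments printed above, Igkj1, Igkj2, Igkj4 and Igkj5 had 385, 303, 160 and 318 counts over the 9 kidneys, and Igkj3 had 6 and so fell below the threshold. Their shares of the kappa J counts in the 6 older kidneys were 33.0%, 25.8%, 13.6% and 27.1%, against 0.514% for Igkj3. Igkj3 is also the kappa J segment in whose sequence the marked letters were not found. The heavy chain segments Ighj1, Ighj2, Ighj3 and Ighj4 had 121, 108, 82 and 131 counts, and the lambda segments Iglj1 and Iglj3 had 41 and 13. Igkj1 had no count at 3 months and was at 0.504, 2.72 and 1.12 CPM at 24 months, at least 20.9-fold higher (adjusted p = 0.0465 from edgeR), with 3 counts per library taken as the floor. Ighj1 had 1 count at 3 months, 41 at 12 months and 79 at 24 months, and was called at both ages with adjusted p-values of 0.0396 and 0.0187. The call of Igkj1 and the 12-month call of Ighj1 were lost without any 1 of the 6 kidneys. The 24-month call of Ighj1 was lost without 3-month replicate 1, 3-month replicate 3 or 24-month replicate 3.

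Genes of the B lineage were followed in the same fit, in lists chosen with earlier results of these data known. Of 22 B cell genes, 21 were tested, and 8 were up-regulated and none down-regulated at 24 against 3 months. Over all genes tested, 1.89% were up-regulated and 0.451% down-regulated. Among the 8 were Cd79a, a signalling part of the B cell receptor complex, the surface proteins Cd22 and Cd37, and the signalling adaptor Bank1. Fcrla and the transcriptional regulators Pou2af1 and Spib were also among the 8. The log2 fold changes of these genes lay from 1.85 for Cd37 to 4.31 for Pou2af1. The median of the 21 genes was 1.63, where that of all genes tested was 0.0007. Cd79a was at 0.158, 0.246 and 0.292 CPM at 3 months, 0.989, 1.04 and 1.003 CPM at 12 months, and 1.10, 1.96 and 2.07 CPM at 24 months. Its 3 ages did not overlap, and it rose by 2.86 on the log2 scale at 24 months (standard error 0.337, adjusted p = 0.00418 from edgeR) and by 2.10 at 12 months (adjusted p = 0.0221). The 24-month calls of Cd79a and Cd37 were kept with each kidney left out in turn. Those of Cd22, Bank1, Fcrla and Spib were kept in 1 of the 6 cases each, and that of Pou2af1 in 4. The log2 fold changes then lay between 2.33 and 3.13 for Cd22, 2.0 and 2.89 for Bank1 and 1.55 and 2.25 for Fcrla.

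At 12 against 3 months Cd79a and Cd37 were the called B cell genes, both up-regulated, where 1.22% of all genes tested were up-regulated. At 24 against 12 months no B cell gene was called, where 0.896% of all genes tested were up-regulated. Ms4a1, which encodes CD20, had a log2 fold change of 2.48 at 24 months that did not pass the test (adjusted p = 0.0828 from edgeR). Cd79b, the partner of Cd79a, had one of -0.19 (adjusted p = 0.831) at levels of 1.57 and 1.81 CPM. Ebf1, Blnk and Cr2, which other kidney cells may also express, had values between -0.10 and -0.05. Of the 21 tested genes 16 had a log2 fold change above 0, and the lowest was that of Ly6d, at -1.34 (adjusted p = 0.378). Ly6d was at 16.3, 1.35 and 22.8 CPM at 3 months, 0.590, 1.32 and 0.521 CPM at 12 months, and 2.76, 6.08 and 7.10 CPM at 24 months, where only the 3- and 24-month-old kidneys overlapped, and its log2 fold change between 12 and 3 months was -4.05 (adjusted p = 0.0549 from edgeR).

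None of 17 plasma cell and secretory genes, of which 16 were tested, was called in any comparison. Jchain, which links the units of IgM and IgA polymers, was at 1.26, 0.451 and 2.61 CPM at 3 months, 6.37, 86.4 and 57.4 CPM at 12 months, and 12.2, 97.7 and 23.4 CPM at 24 months. All older kidneys were above all 3-month-old ones, but the log2 fold changes of 5.12 at 12 months (adjusted p = 0.0594 from edgeR) and 4.95 at 24 months (adjusted p = 0.0703) did not pass the test. Mzb1, a chaperone of antibody assembly, was at 0.656, 0.778 and 0.675 CPM at 3 months, 0.174, 0.428 and 0.367 CPM at 12 months, and 0.260, 0.714 and 0.445 CPM at 24 months. Every 12-month-old kidney lay below every 3-month-old one, opposite to the immunoglobulin sum, and the 24-month-old kidneys overlapped with both. The log2 fold change of Mzb1 at 24 against 3 months was -0.57 (adjusted p = 0.459). Xbp1, a regulator of secretion that tubular cells hold as well, had means of 210, 126 and 177 CPM at 3, 12 and 24 months. Its 12-month-old kidneys too lay wholly below the 3-month-old ones. Prdm1, of the same list, was at 0.919, 1.02 and 0.855 CPM at 3 months and 1.56, 2.48 and 1.95 CPM at 12 months. Its 24-month values were 1.91, 1.76 and 1.11 CPM, and all its older kidneys lay above all 3-month-old ones. Of the 16 tested genes, 10 had a log2 fold change above 0 at 24 against 3 months and 5 at 12 against 3 months. Over the 16 tested genes the median log2 fold change at 24 against 3 months was 0.06.

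**Figure D5:**
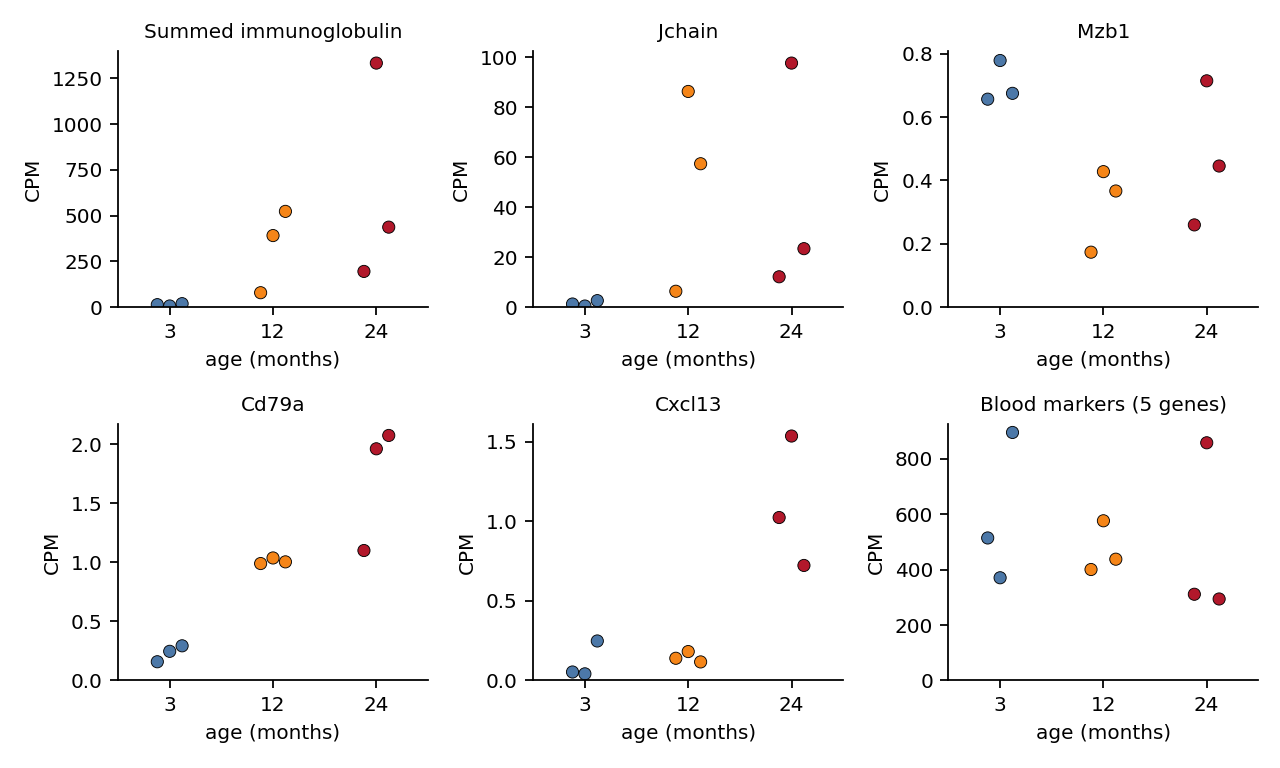
CPM per kidney (linear axes from 0) of all 184 immunoglobulin genes summed, of Jchain, Mzb1, Cd79a and Cxcl13, and of 5 blood markers summed, by age with 1 point per mouse. The immunoglobulin sum and Jchain spread widely at 12 and 24 months, Cd79a separates the 3 ages, Cxcl13 is higher at 24 months, and the blood markers overlap between all ages.

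Of 12 survival factors and chemokines, 9 were tested and Cxcl13, which attracts B cells, was called. Over all genes tested, 1.89% were up-regulated at 24 against 3 months and 0.896% at 24 against 12 months. Cxcl13 was at 0.0525, 0.0410 and 0.247 CPM at 3 months, 0.139, 0.181 and 0.116 CPM at 12 months, and 1.02, 1.54 and 0.722 CPM at 24 months. The 24-month-old kidneys lay above all younger ones, which overlapped with each other. Cxcl13 was up-regulated by 3.24 on the log2 scale against 3 months (standard error 0.600, adjusted p = 0.0288 from edgeR) and by 2.89 against 12 months (adjusted p = 0.0499). The second call was lost without any 1 of the 6 kidneys, and the first was kept without 3-month replicate 2 or 3 only. With a kidney left out the log2 fold change lay between 2.82 and 4.5 against 3 months and 2.57 and 3.11 against 12 months. None of 9 homing receptors and none of 10 antibody transport and Fc receptor genes was called. Pigr, which carries IgA and IgM across epithelia, was at 142, 266 and 121 CPM at 3 months and 540, 370 and 424 CPM at 24 months without overlap, with a log2 fold change of 1.34 (adjusted p = 0.0720). Fcmr, the IgM receptor, had one of 1.66 (adjusted p = 0.0516). Of 8 genes of B cell precursors and diversification, 1 had enough counts to be tested, and it was not called.

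Markers of other cells were read beside these results. The 5 blood markers, of which none was at 0, summed to between 371 and 896 CPM at 3 months, 400.5 and 577 CPM at 12 months and 294 and 858 CPM at 24 months, and 24-month replicate 2, which was highest in immunoglobulin RNA, was also the highest of its age at 858 CPM. At 3 months, replicate 3 with the most immunoglobulin RNA had the most blood marker RNA, at 896 CPM, whereas at 12 months the highest kidneys in the 2 measures differed. The part of blood in the differences between kidneys was not tested. The 3 pan-leukocyte markers summed to between 22.8 and 26.3 CPM at 3 months, 37.6 and 42.3 CPM at 12 months and 42.9 and 64.4 CPM at 24 months, without overlap. Singly, each of these 3 markers overlapped between some of the ages. Ptprc was at 4.40 to 7.06, 7.10 to 13.98 and 6.13 to 10.35 CPM at 3, 12 and 24 months. Coro1a was at 7.91 to 13.25, 12.25 to 17.99 and 13.09 to 19.12 CPM, and Laptm5 at 6.03 to 11.8, 10.3 to 20.5 and 18.65 to 34.9 CPM. The 6 T cell markers summed to between 2.86 and 4.36, 4.73 and 7.96, and 6.55 and 8.99 CPM. The sum of 4 macrophage markers, most of it Csf1r, overlapped between the ages, between 42.3 and 104 CPM in all kidneys. Of its members, Cd68 was lower in every 3-month-old kidney (2.28 to 2.52 CPM) than in every older one (3.14 to 5.67 CPM), and Adgre1 was at 3.01 to 4.79 CPM at 3 months and 5.36 to 9.93 CPM at 24 months. The 3 neutrophil markers summed to between 0.348 and 13.2 CPM and overlapped between the ages. The 5 markers of lymph node stroma summed to between 2.18 and 2.84 CPM at 3 months, 1.63 and 2.43 CPM at 12 months and 1.81 and 2.43 CPM at 24 months. Much of this sum was Cr2, and 12-month replicate 3, the highest of its age in immunoglobulin RNA, was also the highest of its age in this sum, whereas 24-month replicate 2 and 3-month replicate 3, the highest of their ages in immunoglobulin RNA, were the lowest of their ages in it. Madcam1, an adhesion molecule of lymphoid vessels, was at 0 to 0.0263 CPM at 3 months and 0 to 0.0386 CPM at 12 months. It was at 0.0614 to 0.0916 CPM at 24 months, with at most 6 counts in any kidney. Ccl21a, of the same list, was lower in every older kidney (0.434 to 0.611 CPM) than in every 3-month-old one (0.675 to 1.08 CPM). Ccl19 was at 0.289 to 0.742 CPM at 3 months and 0.0987 to 0.2255 CPM at 12 months. Its 24-month values, 0.228 to 0.458 CPM, overlapped with those at 3 months. Glycam1 had at most 2 counts in any kidney, and Cr2 overlapped between the ages. The part of lymphoid tissue in the differences was not tested. The 5 B cell markers summed to between 1.21 and 3.42 CPM at 3 months, 2.89 and 4.01 CPM at 12 months and 3.71 and 6.20 CPM at 24 months. In 3-month replicates 1 and 3 most of this sum was Cd79b, at 2.34 and 2.61 CPM.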

How the data were processed

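RNA of 9 kidneys and 8 PTEC cultures had been sequenced by the authors as stranded poly(A) libraries in paired-end reads, run through nf-core/rnaseq and deposited as raw counts of each gene, not normalized. The aligner, the counter and the strand setting of the counting are not given in the sources used here, and 12 of the 184 genes overlap another gene. The study names GENCODE release M18 of GRCm38, and biotypes, symbols and sequences were taken from release M21, joined by gene identifier without version. The members and all gene lists were chosen with earlier results of these data known.

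From the counts, CPM on TMM library sizes, log2 fold changes and p-values were computed in R 4.3.3 with edgeR 4.0.16 (filterByExpr, robust quasi-likelihood test, Benjamini-Hochberg adjustment over all 17067 genes, ages in one fit), and with DESeq2 1.42.0 and limma 3.58.1 as alternatives. Summaries used Python 3.11.15 with biopython 1.88, matplotlib 3.10.9, pandas 2.3.3, scipy 1.17.1 and numpy 2.4.6. Shares per kilobase used the union of exons. The depth was 37311247 to 66894790 counts per kidney, and counting intervals and floors (3 counts per library) cover counting error only. Counts between replicates varied far beyond it, at a chi-square of 17.0 to 341 per gene. Replicates are separate mice. The study pooled 9 barcoded libraries for 2 sequencing runs that were combined, without saying which, so that a batch was not tested.

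Named genes are all constant region and J members, the 5 most abundant and the leading segments of Ighv, Igkv and Iglv, the 5 largest and smallest called changes per comparison with at least 1 CPM and groups without overlap, the neighbours of the threshold, called genes of the pathway lists, and Jchain, Mzb1, Cd79a and Ms4a1. Others were named after their values were seen, and 1 called gene of the B cell list is not reported here. Same-numbered kidneys of 12 and 24 months deviated together from their group means (r = 0.384, 0.557 and 0.172 over 3 pairs), so these numbers were taken to pair the ages from the data, as the labels do not explain them. Different-numbered kidneys of these ages gave r from -0.479 to 0.27, and 2 of these 6 pairs exceeded the lowest same-numbered value. Between 3 and 12 months different-numbered kidneys reached r = 0.747, above every same-numbered pair. On simulated data for 24 against 3 months over 17067 genes, edgeR recovered 27 of 100 genes changed by 1 and 72 of 100 changed by 2 on the log2 scale, with 6 false calls among 105. The alternatives comprised other scalings, filters, a higher threshold, other tools, the replicate block, fits of the compared ages alone, and each kidney left out in turn.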

Additional observations from a re-analysis of the deposited data

Results flagged for a closer look

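PTEC cultures should hold no B cells, and their values lay outside the comparisons of the kidneys. A signal of Ighv6-3 was found there, with a mean of 1.99 ± 0.977 CPM (SD, n = 4) in senescent cultures (from 1.34 to 3.43 CPM) and 0.249 ± 0.156 CPM in non-senescent cultures (from 0.0371 to 0.367 CPM), while 3-month-old kidneys had no count of it. Summed over all 260 annotated immunoglobulin genes, the level was 2.83 ± 1.18 CPM in senescent cultures (from 1.86 to 4.56 CPM). It was 0.148 to 0.579 CPM in non-senescent cultures. Over the 184 genes alone, the sum in senescent cultures lay between 1.825 and 4.422 CPM. Constant region genes summed to 0.367 CPM (from 0.324 to 0.424 CPM), against 0 to 0.0742 CPM. Irradiation and days in culture cannot be told apart here, and the difference was not tested. Without Ighv6-3 the summed level of the kidneys at 24 months was 655 instead of 656 CPM.

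Immunoglobulin pseudogenes, 161 in number, of which 21 had a count, summed to 0.118 ± 0.0440 CPM at 12 months and 0.163 ± 0.144 CPM at 24 months, against 0.0313 ± 0.0340 CPM at 3 months (SD, n = 3 each). The highest, Ighv1-62, had 8 counts in all.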

How the results depend on the processing

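Immunoglobulin genes up-regulated at 24 against 3 months numbered 35, and 16 with a filter of 1 CPM in 3 kidneys, 122 in DESeq2, 21 in limma voom and 32 with the replicate block, and between 2 and 27 with a kidney left out. At 12 against 3 months the number was 18, and 6 with that filter, 97 in DESeq2, 5 in limma voom, 14 with the replicate block and 4 with the compared ages alone, where 31 of the 184 genes passed the filter, and between 0 and 18 with a kidney left out. At 24 against 12 months it was 0, and 1 without a filter, 10 in DESeq2, 0 with the replicate block in all 9 kidneys, 24 with the block in these 6 kidneys (chosen after seeing the data) and 0 with each kidney left out. Same-numbered kidneys did not deviate together between 3 and 12 months (r from -0.701 to -0.049) or 3 and 24 months (from -0.42 to -0.034), so the block has no basis there. Other scalings, a log2 threshold of 1 and leaving immunoglobulin genes out of the scaling moved these numbers to between 33 and 35, 14 and 19, and 0. The fold of summed CPM between 24 and 12 months ranged from 0.955 to 2.79 with a kidney left out. Ighv segments with a count, over all annotated genes, fell to 11.5, 12.1 and 11.8 at 3, 12 and 24 months when thinned to the shallowest kidney, and Igkv segments to 12.3 at both older ages. Without thinning, Ighv segments with a count at 24 months numbered 71.7 among genes with at least 10 counts, instead of 79.3. Of results for single named genes, 1 of 1286 under other settings reversed its direction: Ighv5-16 between 24 and 12 months, at 0.20 in limma voom instead of -0.84. With a kidney left out 29 of 900 did. Between 24 and 12 months the log2 fold change then ranged from -1.77 to 0.53 for Igha, -0.60 to 1.37 for Ighj2, -0.93 to 0.59 for Ighj3, -0.07 to 1.21 for Ighj4, -1.29 to 4.71 for Ighv1-52, -1.39 to 0.76 for Ighv5-16, -1.70 to 0.03 for Ighv9-3, -0.73 to 0.82 for Igkj2, -0.43 to 1.52 for Igkj5, -1.10 to 0.08 for Igkv1-110, -1.14 to 2.48 for Igkv17-127, -1.43 to 0.17 for Igkv6-15, -0.56 to 0.67 for Igkv6-23, -0.44 to 1.56 for Iglc2, -0.53 to 1.83 for Iglv1, -0.09 to 1.87 for Iglv2 and -1.49 to 0.48 for Jchain, and between 12 and 3 months from -0.07 to 1.61 for Cxcl13. The cause was not tested. The planned search for octamers in V promoters was not run, since the reference table used here lists none of the 184 genes. Depth limits the 3-month-old kidneys most, where single V segments rest on a few counts.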
